A study of Homo sapiens with 12 samples.

Results

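The Eph receptors and their ephrin ligands were followed through RNA-seq of LNCaP prostate cancer cells with and without Bag-1L. The set held 10 genes of the 63677 gene identifiers counted in each sample, and was chosen by gene symbol with earlier results of these data known: the receptors EPHA3, EPHA4, EPHA7, EPHB2, EPHB3 and EPHB4, and the ligands EFNA1, EFNA4, EFNA5 and EFNB2. These are 10 of the 22 Eph and ephrin genes in the annotation. EPHA3 was selected on its higher level in the Bag-1L KO line, so its differences between the lines are given as values and were not tested, and counts of changed genes between the lines are over the other 9.

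Eph receptors form the largest family of receptor tyrosine kinases, and their ligands, the ephrins, are themselves bound to the membrane, so that signalling needs contact between cells. A-type ephrins are held by a lipid anchor and bind mainly EphA receptors, whereas B-type ephrins cross the membrane and bind mainly EphB receptors, with EphA4 known to bind both types. Contact signals forward into the receptor-bearing cell and in reverse into the ephrin-bearing cell, and in epithelia the system is known for cell repulsion, boundary formation and control of adhesion and migration.

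LNCaP is an established line from a prostate cancer metastasis that responds to androgen. The lines came from a TALEN experiment: in LNCaP-Talen Bag1L KO (KO) the nuclease had removed the start codon of Bag-1L, the longest protein form of the BAG1 gene, and LNCaP-Talen Control (control) was the vector control. KO cells had been cloned by serial dilution, and how many clones stood behind either line was not given, so that an effect of Bag-1L loss and a property of a clone cannot be told apart in any difference between the lines. Each line was grown in full medium (FM), or was kept 72 h without hormone in charcoal-stripped serum and then given ethanol vehicle (EtOH) or 10 nM of the androgen dihydrotestosterone (DHT) for 16 h, which gave 6 groups with 2 biological replicates each. In such bulk RNA, fewer cells of a kind and less RNA per cell cannot be told apart.

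Between 20826843 and 30354666 reads were counted to genes per sample. With 3 counts as the floor of detection, this allows levels from 0.0988 to 0.144 CPM (counts scaled to a common library total) to be seen. The luminal prostate markers KLK2, KLK3, KRT8 and KRT18 each had at least 10 counts in every sample, while the markers of other cells were scarce: summed levels ran from 0.12 to 1.33 CPM for 3 basal genes, 0.048 to 0.39 CPM for 2 endothelial genes and 0.0329 to 0.273 CPM for 3 leukocyte genes. Of 4 fibroblast genes, COL1A1 alone had at least 10 counts in every sample, and their sum was 15.6 to 17.4 CPM in the FM samples and 28.2 to 38.7 CPM in the starved ones. The part of these genes in the FM results was not tested. BAG1 itself fell in KO in EtOH (log2 fold change -0.94 ± 0.18 SE, DESeq2 adjusted p = 6.35e-06; -1.24 without control EtOH replicate 1, and -0.57, below the 1.5-fold minimum used here, without replicate 2) and in DHT (-1.14 ± 0.18, DESeq2 adjusted p = 7.71e-09) but did not pass the test in FM (-0.43, DESeq2 adjusted p = 0.0682). Counts over the whole gene do not show whether its Bag-1L start codon is present. The 2 control EtOH samples stood apart: they differed by a median of 0.238 on the log2 scale per gene, against 0.076 to 0.172 within the other groups, so the members' called values that rest on them are also given without either.

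The 250 bases before the annotated start of 4 members are shown, because EPHA3, EPHA7, EFNB2 and EFNA5 had the largest differences between the lines in EtOH, and EPHA7 also the largest response to DHT. The sequences are RefSeq, build GRCh38.p14, read 5′ to 3′ on the strand of the gene, and EPHA7 is shown at the first of its 3 listed starts. Capitals mark GC boxes, the letters GGGCGG on either strand, which are the binding letters of Sp-family factors.
EPHA3, chr3:89107371-89107620, strand +: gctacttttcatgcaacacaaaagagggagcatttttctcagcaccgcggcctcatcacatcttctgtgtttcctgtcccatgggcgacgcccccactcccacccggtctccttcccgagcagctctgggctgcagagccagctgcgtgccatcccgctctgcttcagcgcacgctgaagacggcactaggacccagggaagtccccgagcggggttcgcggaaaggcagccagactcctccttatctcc
EFNA5, chr5:107670938-107671187, strand -: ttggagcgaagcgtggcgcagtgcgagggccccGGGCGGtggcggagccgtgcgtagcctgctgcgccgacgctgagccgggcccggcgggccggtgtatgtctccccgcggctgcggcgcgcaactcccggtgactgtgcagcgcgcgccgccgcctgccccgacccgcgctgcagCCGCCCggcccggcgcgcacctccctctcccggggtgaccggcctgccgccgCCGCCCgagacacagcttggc
EPHA7, chr6:93419560-93419809, strand -: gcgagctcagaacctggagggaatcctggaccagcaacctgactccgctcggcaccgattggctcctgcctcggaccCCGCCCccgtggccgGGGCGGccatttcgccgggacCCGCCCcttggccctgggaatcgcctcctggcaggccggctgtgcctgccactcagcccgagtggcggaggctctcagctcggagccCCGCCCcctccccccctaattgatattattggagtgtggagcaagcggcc
EFNB2, chr13:106535663-106535912, strand -: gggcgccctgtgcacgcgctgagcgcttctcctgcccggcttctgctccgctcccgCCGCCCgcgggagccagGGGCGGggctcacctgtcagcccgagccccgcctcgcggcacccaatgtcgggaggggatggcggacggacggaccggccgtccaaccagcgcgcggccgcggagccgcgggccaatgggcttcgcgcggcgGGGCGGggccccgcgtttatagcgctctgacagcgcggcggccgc
The EPHA3 window held no GC box, and the 4 windows were 61.2%, 79.6%, 69.6% and 78.4% G or C in the order shown, against a median of 58% over all windows. All 10 members had entries, with 14 windows in all. GGGCGG was found in 13 of the 14 and in every member other than EPHA3, against 42.6% of all 35116 windows. The EPHB2 windows overlap, as do the later EPHA7 windows, so the 14 are not separate, and the comparison was not adjusted for G and C content. TATAAA, searched on both strands, was in 2 of the 14, one each of EPHA7 and EFNB2, against 10.7% of all windows. Neither letter string contains the other, and the matches describe these windows alone.

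Between the lines, the largest values in the set belonged to EPHA3, and among the other 9 members EFNA5 rose in KO in all 3 conditions while EPHA7 fell in all 3. A gene is said to have risen or fallen where it changed at least 1.5-fold with a DESeq2 adjusted p of 0.05 or less. In EtOH, 1 of the 9 rose (EFNA5), where 2.8% of all genes tested did, and 2 fell (EPHA7 and EFNB2), where 2.31% did. EPHB4 joined those that fell without control EtOH replicate 1, and without replicate 2 the calls stayed at EFNA5, EPHA7 and EFNB2. In DHT, 2 rose (EFNA5 and EPHA4), with 4.66% of all genes, and 1 fell (EPHA7), with 3.32%. In FM, 1 rose (EFNA5), with 5.41% of all genes, and 1 fell (EPHA7), with 2.6%. The median log2 fold change of the 9 was 0.02 in EtOH, -0.23 in DHT and 0.14 in FM, against -0.01, -0.02 and -0.01 over all genes tested.

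DHT raised EPHA7 in both lines, raised EFNB2 in KO and lowered EPHA4 in control. In control, 1 of the 10 members rose, where 6.04% of all genes did, and 1 fell, where 5.37% did. In KO, 2 rose, with 4.43% of all genes, and 0 fell by DESeq2, with 3.24% of all genes and with 0 members at an unadjusted p under 0.05 and 0 by edgeR. The difference of the responses, KO minus control, was past the threshold for 1 of 9 members in the higher direction (EFNB2), where 0.223% of all genes were, and for 0 by DESeq2 in the lower direction, where 0.185% were, again with 0 at an unadjusted p under 0.05 and 0 by edgeR. The median log2 fold change of the members was 0.19 in control and 0.13 in KO, against -0.02 and -0.01 over all genes tested.

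FM, which holds hormone and growth factors together, was compared with the same EtOH samples. In control, 1 of the 10 rose (EPHA7), with 9.81% of all genes, and 2 fell (EPHA4 and EFNA1), with 11.5%. EPHB4 was called lower as well without control EtOH replicate 1, and without replicate 2 EFNA1 was not called. In KO, 2 rose (EPHA7 and EFNB2), with 9.61% of all genes, and 1 fell (EPHA4), with 9.68%. The FM response differed between the lines in the higher direction for EFNB2 only, where 0.748% of all genes did, and for 0 members by DESeq2 in the lower direction, where 0.64% of all genes did, with 0 at an unadjusted p under 0.05 and 0 by edgeR. Since the DHT and FM comparisons of a line share its EtOH samples, they are not independent. The median member value was -0.25 in control and -0.15 in KO, against -0.01 over all genes tested in either line, and EPHA4 had no adjusted p for this last difference.

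**Figure D1:**
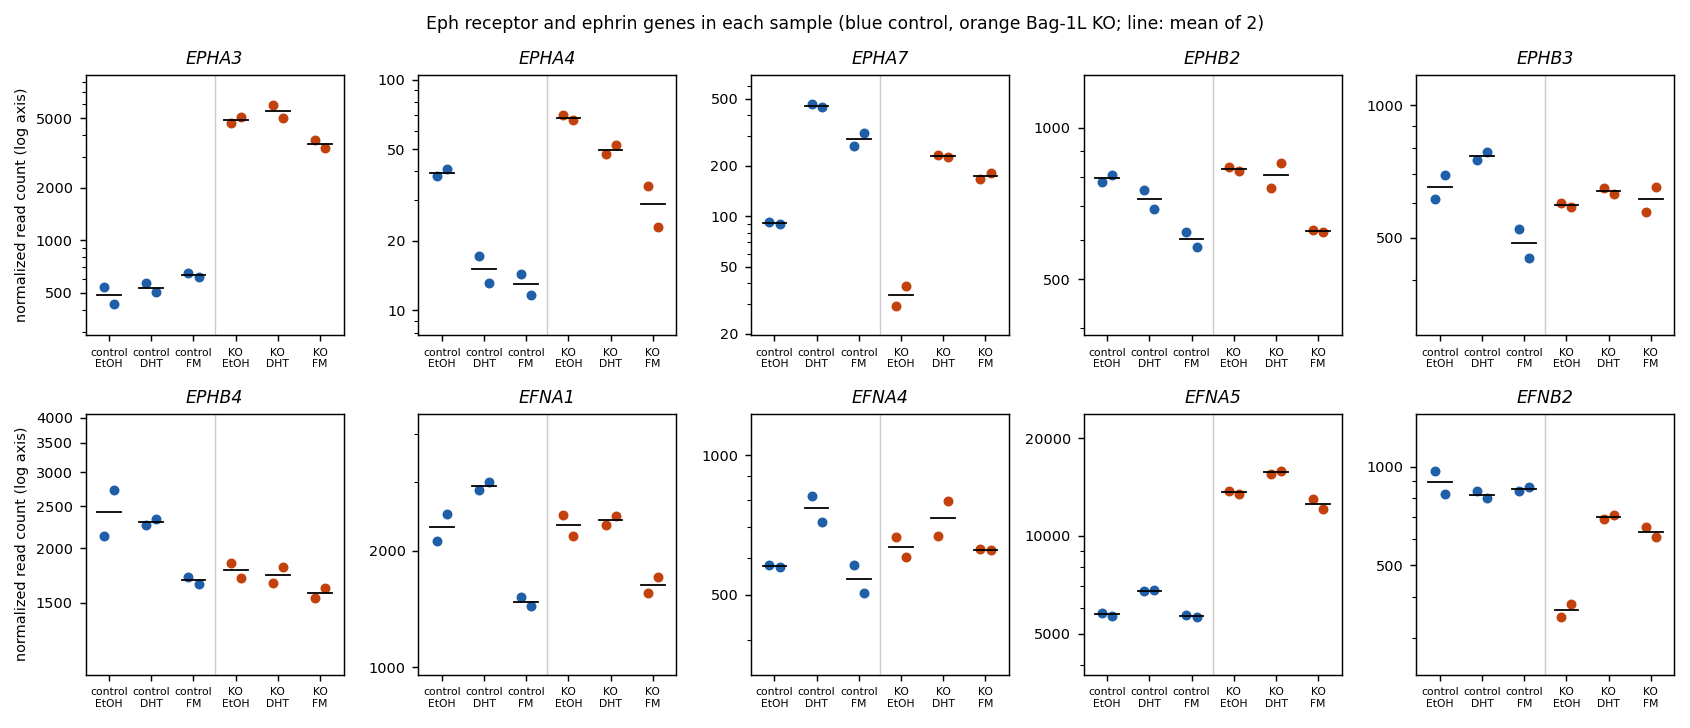
Normalized read count (log axis, each panel with its own range) of the 10 Eph receptor and ephrin genes in each of the 12 samples, blue for control and orange for KO, with a line at the mean of the 2 replicates. EPHA3 and EFNA5 lie higher in every KO sample than in any control sample, EPHA7 is lowest in the EtOH samples of each line, and EFNB2 is low in KO EtOH.

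EPHA3 (chr3:89156771-89531284 on GRCh37, plus strand) encodes a receptor that binds mainly A-type ephrins, ephrin-A5 among them. Positions of the members are given on this build and span all exons and introns of the gene. Its normalized read counts, scaled for depth by DESeq2, in control were 539.6 and 429.7 with EtOH, 566.4 and 506.4 with DHT, and 651.6 and 613.8 in FM. In KO they were 4683.0 and 5099.8 in EtOH, 5908.1 and 5004.0 in DHT, and 3757.9 and 3382.3 in FM. Every KO sample was above every control sample in every condition. The fitted KO level was 10.1-fold the control level in EtOH (log2 3.33 ± 0.14 SE), 10.2-fold in DHT (3.35 ± 0.14) and 5.65-fold in FM (2.50 ± 0.14). Without control EtOH replicate 1 the EtOH value was 3.51, and without replicate 2 it was 3.18.

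In order, EPHA3 was highest in KO DHT and KO EtOH, whose samples overlapped, then KO FM, control FM, and last control DHT and control EtOH, whose samples also overlapped. Comparisons within a line use the same samples as its selection, so they are not fully independent of it. DHT gave log2 fold changes of 0.15 ± 0.15 in control (95% interval -0.14 to 0.43, DESeq2 adjusted p = 0.581) and 0.16 ± 0.13 in KO (-0.10 to 0.42, DESeq2 adjusted p = 0.564). Neither was past the threshold, and both intervals lay inside the 1.5-fold limits. FM against EtOH had opposite signs, 0.38 ± 0.14 in control (DESeq2 adjusted p = 0.0263) and -0.45 ± 0.13 in KO (DESeq2 adjusted p = 0.00315), both below the 1.5-fold minimum, so EPHA3 was not called in any comparison within a line. The control values depended on the EtOH sample used: without control EtOH replicate 1 or 2 the FM value was 0.56 or 0.23, and the DHT value 0.32 or -0.01.

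EPHA7 (chr6:93949738-94129405, minus strand), another receptor for A-type ephrins, was the member with the strongest response to hormone. In control its normalized counts were 92.3 and 90.5 in EtOH, 465.4 and 447.9 in DHT, and 263.9 and 311.3 in FM. In KO they were 29.4 and 38.6 in EtOH, 233.2 and 226.1 in DHT, and 166.0 and 180.8 in FM. In each line the order was DHT, FM, EtOH without overlap, and in each condition both KO samples were below both control samples.

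DHT raised EPHA7 4.99-fold in control (log2 2.32 ± 0.19, DESeq2 adjusted p = 1.14e-31) and 6.7-fold in KO (2.74 ± 0.24, DESeq2 adjusted p = 1.21e-27). The difference of these responses was 0.42 ± 0.31 (95% interval -0.18 to 1.03) with a DESeq2 adjusted p of 1, so a response of equal size, a slightly smaller one and a larger one in KO all lie within the interval. FM raised EPHA7 3.15-fold in control (log2 1.66 ± 0.20, DESeq2 adjusted p = 9.01e-16) and 5.05-fold in KO (2.34 ± 0.25, DESeq2 adjusted p = 9.36e-20). Against control, KO was 2.67-fold lower in EtOH (log2 -1.41 ± 0.26, DESeq2 adjusted p = 2.25e-06), 1.99-fold lower in DHT (-0.99 ± 0.17, DESeq2 adjusted p = 4.22e-07) and 1.66-fold lower in FM (-0.73 ± 0.18, DESeq2 adjusted p = 0.00111). Leaving out control EtOH replicate 1 or 2, the control values were 2.33 or 2.31 for DHT and 1.67 or 1.64 for FM, and KO against control in EtOH was -1.40 or -1.43, all past the threshold. The hormone response thus stood on a lower level in KO, and KO with DHT (229.6 ± 5.0 SD, n = 2) was between control EtOH (91.4 ± 1.3) and control DHT (456.6 ± 12.4). The FM difference between the lines was lost without control FM replicate 2 (log2 -0.61, DESeq2 adjusted p = 0.14) or KO FM replicate 1 (-0.67, DESeq2 adjusted p = 0.0778).

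EPHA4 (chr2:222282747-222438922, minus strand), the receptor that binds both ephrin types, had the lowest mean of the members over the 12 samples, with normalized counts between 11.7 and 70.1. Only in KO EtOH did EPHA7 read lower. In control EPHA4 read 38.1 and 40.8 with EtOH, 17.2 and 13.1 with DHT, and 14.4 and 11.7 in FM. In KO it read 70.1 and 66.8 in EtOH, 47.6 and 51.8 in DHT, and 34.5 and 23.0 in FM. It was highest in EtOH in both lines and higher in KO than in control in every condition, with no overlap, which is the reverse of EPHA7 on both counts.

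Only part of this passed the test at such low counts. EPHA4 fell with DHT in control (log2 -1.38 ± 0.43, DESeq2 adjusted p = 0.00982) and with FM in control (-1.60 ± 0.45, DESeq2 adjusted p = 0.00163) and in KO (-1.24 ± 0.38, DESeq2 adjusted p = 0.00478), whereas DHT in KO gave -0.46 ± 0.35 (DESeq2 adjusted p = 0.505). The control values without control EtOH replicate 1 or 2 were -1.43 or -1.33 for DHT and -1.65 or -1.55 for FM, all past the threshold. The difference of the DHT responses was 0.92 (95% interval -0.17 to 2.01) with a DESeq2 adjusted p of 1. Between the lines it rose 3.28-fold in KO in DHT (log2 1.71 ± 0.42, DESeq2 adjusted p = 0.000873), with 0.80 ± 0.36 in EtOH (DESeq2 adjusted p = 0.172) and 1.16 ± 0.46 in FM (DESeq2 adjusted p = 0.0576), and edgeR called these last values too (adjusted p = 0.0477 and 0.0266). All 4 calls of EPHA4 by DESeq2 rested on single samples: DHT in control was lost without control DHT replicate 2 (DESeq2 adjusted p = 0.124), KO against control in DHT without the same sample (0.0631), FM in control without control FM replicate 2 (0.0549), and FM in KO without KO FM replicate 2 (0.145), KO EtOH replicate 1 (0.0708) or KO EtOH replicate 2 (0.061).

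EphB receptors bind mainly the B-type ephrins, and the 3 in this set kept to narrow ranges. EPHB6, outside the set, read between 65.2 and 331.2 normalized counts. EPHB4 (chr7:100400187-100425145, minus strand), known as the receptor for ephrin-B2 in vessels, read between 1536.2 and 2723.5 normalized counts over the 12 samples. EPHB2 (chr1:23037332-23247993, plus strand) read between 580.7 and 851.6, and EPHB3 (chr3:184279573-184300196, plus strand) between 450.4 and 783.8. None of these 3 receptors was called in any comparison, although several values passed the adjusted p without the 1.5-fold minimum.

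EPHB4 had 2132.6 and 2723.5 normalized counts in control EtOH against 1851.5 and 1708.1 in KO EtOH, and 2266.5 and 2333.2 in control DHT against 1666.0 and 1811.8 in KO DHT. Both KO samples were lower in each of these conditions. The log2 fold change was -0.45 ± 0.13 in EtOH (DESeq2 adjusted p = 0.00814), -0.40 ± 0.13 in DHT (DESeq2 adjusted p = 0.0146) and -0.09 in FM (DESeq2 adjusted p = 0.664). The EtOH value turned on the control samples that stood apart: without control EtOH replicate 1 it was -0.61 and past the threshold (DESeq2 adjusted p = 3.01e-06), and without replicate 2 it was -0.26 (DESeq2 adjusted p = 0.142). The same held for FM against EtOH in control, with -0.53 ± 0.13 (DESeq2 adjusted p = 0.000269) from all samples, -0.69 and past the threshold without replicate 1 (DESeq2 adjusted p = 1.95e-08), and -0.34 without replicate 2. EPHB4 overlaps SLC12A9 on the opposite strand, which itself had 893 to 1399 counts, and the strand setting of the counting was not given.

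EPHB2 was lower in FM than in EtOH by similar amounts in control (log2 -0.40 ± 0.12, DESeq2 adjusted p = 0.00484) and in KO (-0.41 ± 0.12, DESeq2 adjusted p = 0.00435), and EPHB3 in control (-0.43 ± 0.14, DESeq2 adjusted p = 0.00737). These control values without control EtOH replicate 1 or 2 were -0.42 or -0.38 for EPHB2 and -0.52 or -0.33 for EPHB3. For KO against control the 95% intervals of EPHB2 were -0.18 to 0.30 in EtOH, -0.08 to 0.39 in DHT and -0.19 to 0.30 in FM, all inside the 1.5-fold limits.

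Among the ligands, EFNA5 (chr5:106712595-107006638, minus strand), which encodes ephrin-A5, the lipid-anchored ligand known to bind EphA3, rose in KO in every condition. Its normalized counts in control were 5796.3 and 5658.9 in EtOH, 6739.9 and 6816.9 in DHT, and 5694.0 and 5605.6 in FM. In KO they were 13769.7 and 13444.4 in EtOH, 15505.7 and 15840.8 in DHT, and 12964.6 and 12056.3 in FM. The lowest KO sample was above the highest control sample of any condition. KO exceeded control 2.38-fold in EtOH (log2 1.25 ± 0.08, DESeq2 adjusted p = 1.15e-45), 2.31-fold in DHT (1.21 ± 0.08, DESeq2 adjusted p = 1.78e-43) and 2.21-fold in FM (1.15 ± 0.08, DESeq2 adjusted p = 1.35e-38). Leaving out control EtOH replicate 1 or 2 gave 1.27 or 1.23 for the EtOH value. DHT moved EFNA5 by 0.24 ± 0.09 in control (DESeq2 adjusted p = 0.0259) and 0.20 ± 0.08 in KO (DESeq2 adjusted p = 0.0938), below the 1.5-fold minimum, and the difference of these responses was -0.04 with a 95% interval of -0.27 to 0.20.

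EFNB2 (chr13:107142093-107188010, minus strand) encodes ephrin-B2, a transmembrane ligand known as a marker of arteries. In control it varied little between conditions, with normalized counts of 965.9 and 822.6 in EtOH, 840.0 and 798.9 in DHT, and 843.7 and 868.6 in FM. In KO it had 347.0 and 379.3 in EtOH, 689.0 and 712.2 in DHT, and 654.8 and 607.2 in FM. The KO EtOH samples were the lowest of the 12, and the KO samples given DHT or FM lay between them and the control samples.

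EFNB2 fell 2.46-fold in KO in EtOH (log2 -1.30 ± 0.13, DESeq2 adjusted p = 1.4e-19), and leaving out control EtOH replicate 1 or 2 gave -1.18 or -1.41. In DHT the same comparison gave -0.23 ± 0.13 (DESeq2 adjusted p = 0.236) and in FM -0.44 ± 0.13 (DESeq2 adjusted p = 0.00753, below the 1.5-fold minimum). DHT raised EFNB2 1.93-fold in KO (log2 0.95 ± 0.13, DESeq2 adjusted p = 9.76e-11) and gave -0.13 ± 0.13 in control (DESeq2 adjusted p = 0.583). The difference of the responses was itself past the threshold, at 1.07 ± 0.19 (DESeq2 adjusted p = 9.3e-06), and was 0.95 or 1.18 without control EtOH replicate 1 or 2. The member's response was thus present in the line without Bag-1L and did not pass the test in the line with it.

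FM likewise raised EFNB2 in KO (log2 0.80 ± 0.14, DESeq2 adjusted p = 5.74e-08), with -0.06 ± 0.13 in control (DESeq2 adjusted p = 0.755). The difference of these responses was 0.86 ± 0.19 (DESeq2 adjusted p = 0.00106), from the same EtOH samples as the DHT difference, and was 0.74 or 0.97 and past the threshold without control EtOH replicate 1 or 2. The call was lost without control FM replicate 1 (0.83, DESeq2 adjusted p = 0.0517), KO FM replicate 1 (0.80, DESeq2 adjusted p = 0.0793) or KO EtOH replicate 1 (0.80, DESeq2 adjusted p = 0.109).

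EFNA1 (chr1:155100352-155107375, plus strand), a lipid-anchored ligand of EphA2 among others, had in control 2118.3 and 2479.8 normalized counts with EtOH, 2872.2 and 2998.9 with DHT, and 1515.2 and 1438.6 in FM. In KO it had 2474.3 and 2178.6 in EtOH, 2330.0 and 2452.2 in DHT, and 1553.9 and 1705.4 in FM. FM was lowest in both lines. EFNA1 fell in FM in control (log2 -0.64 ± 0.12, DESeq2 adjusted p = 1.04e-06), a call lost without control EtOH replicate 2 (-0.52), and the KO value, -0.51 ± 0.12 (DESeq2 adjusted p = 0.000123), was just below the 1.5-fold minimum and passed it without KO EtOH replicate 2 (-0.60, DESeq2 adjusted p = 0.00102). DHT gave 0.35 ± 0.12 in control (DESeq2 adjusted p = 0.0182; 0.24 or 0.47 without control EtOH replicate 1 or 2) and 0.04 ± 0.12 in KO (DESeq2 adjusted p = 0.916), and the difference, -0.31 with a 95% interval of -0.64 to 0.01, had a DESeq2 adjusted p of 1.

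EFNA4 (chr1:155036213-155042029, plus strand), the remaining A-type ligand, read between 504.8 and 817.8 normalized counts and was called in no comparison. Its largest value was for DHT in control, 0.41 ± 0.14 on the log2 scale (DESeq2 adjusted p = 0.0216). A readthrough gene, EFNA4-EFNA3, shares 10.7% of the 50-base words of EFNA4 and was listed at 0 in every sample, and reads that fit both genes are left out by the counting, so EFNA4 is counted low by an unknown amount. The other members shared at most 0.261% of their words with other genes.

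**Figure D2:**
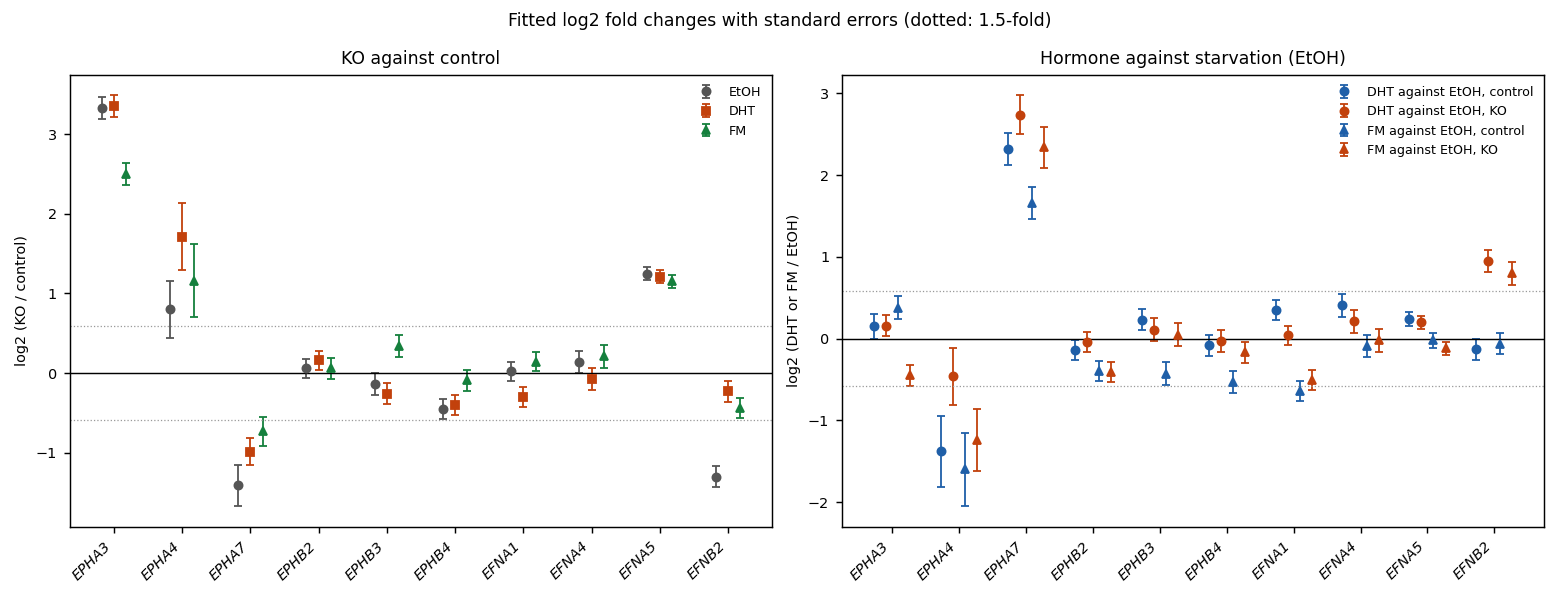
Fitted log2 fold changes of the 10 members with standard errors, KO against control in each condition on the left and DHT or FM against EtOH in each line on the right, with dotted lines at 1.5-fold. EPHA3 (2.50 to 3.35, shown as a description) and EFNA5 (1.15 to 1.25) lie above the upper line in all 3 conditions on the left, EPHA7 (1.66 to 2.74) in all 4 comparisons on the right, and EFNB2 leaves zero on the right in KO only (0.95 and 0.80).

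To compare levels between genes, normalized counts were divided by the length of the merged exons in kb. Among the receptors EPHB4 was the highest in control, with 377 ± 64.9 (SD, n = 2) per kb in EtOH, and EPHA3 in KO, with 744 ± 44.8 per kb in EtOH against 73.7 ± 11.8 in control EtOH. EPHA4 was the lowest member in control EtOH, with 5.22 ± 0.255 per kb, while in KO EtOH EPHA7 was lower (2.06 against 9.06 per kb). Among the ligands EFNA1 and EFNA5 were close in control EtOH, with 1062 ± 118 and 999 ± 16.9 per kb, and EFNA5 was far above EFNA1 in KO EtOH, with 2373 ± 40.1 against 1075 ± 96.6. The closeness depended on the division by length: mean normalized counts in control EtOH were 2299.1 for EFNA1 and 5727.6 for EFNA5.

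Summed over all 14 receptor genes per kb, EPHA3 made up 7.34% ± 1.61 of the total in control EtOH (8.47% and 6.2% in the samples), 8.26% ± 0.541 in control DHT and 12.1% in both control FM samples. In KO it made up 46.1% ± 1.94 in EtOH, 48.8% ± 3.6 in DHT and 42.2% ± 2.66 in FM. EPHB4's share was 37.2% ± 4.2 in control EtOH against 17.2% ± 1.29 in KO EtOH. A share also moves with the total, and the level of EPHB4 was 377 against 276 per kb. With EPHA3 left out, the receptor total of the EtOH samples was 886 and 988 per kb for control against 879 and 858 for KO. In DHT it was 910 and 900 for control against 850 and 883 for KO, and in FM 719 and 678 against 724 and 761. By this measure KO was somewhat lower in EtOH and DHT and somewhat higher in FM, without overlap. The nearest samples were close, at 886 against 879 in EtOH, 900 against 883 in DHT and 719 against 724 in FM. In EtOH the control values, 886 and 988, come from the 2 samples that stood apart. With EPHA3 counted, the EtOH total was 1591 and 1633 per kb for KO against 968 and 1054 for control, so the larger receptor total of KO lay in EPHA3.

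Among the 8 ligand genes EFNA5 made up 30.4% ± 0.843 of the summed per-kb count in control EtOH against 49.6% ± 0.866 in KO EtOH. Its share was 31% ± 0.544 against 52.4% ± 1.59 with DHT, and 38.3% ± 0.514 against 55.1% ± 2.08 in FM. The share of EFNA1 was 32.3% ± 3.24 in control EtOH against 22.4% ± 1.25 in KO EtOH. Its level was 1062 against 1075 per kb, so its lower share came with the larger ligand total of KO. That total was 3263 and 3313 per kb in control EtOH and 4902 and 4670 in KO EtOH. EFNB2 was a small part in either line, with 5.44% ± 0.674 in control EtOH against 1.52% ± 0.147 in KO EtOH. A receptor and a ligand of the A class therefore held the largest share of each total in KO. In control EPHB4 held it among receptors, but an A-class ligand led there too. By mean share this was EFNA1 in EtOH (32.3%) and DHT (35.6%), and EFNA5 in FM (38.3%). In control EtOH replicate 1 alone EFNA5 led, with 31% against 30%. The lead of EFNA1 also depended on the division by length. Undivided mean counts of EFNA5 and EFNA1 were 5727.6 against 2299.1 in control EtOH and 6778.4 against 2935.6 in control DHT.

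**Figure D3:**
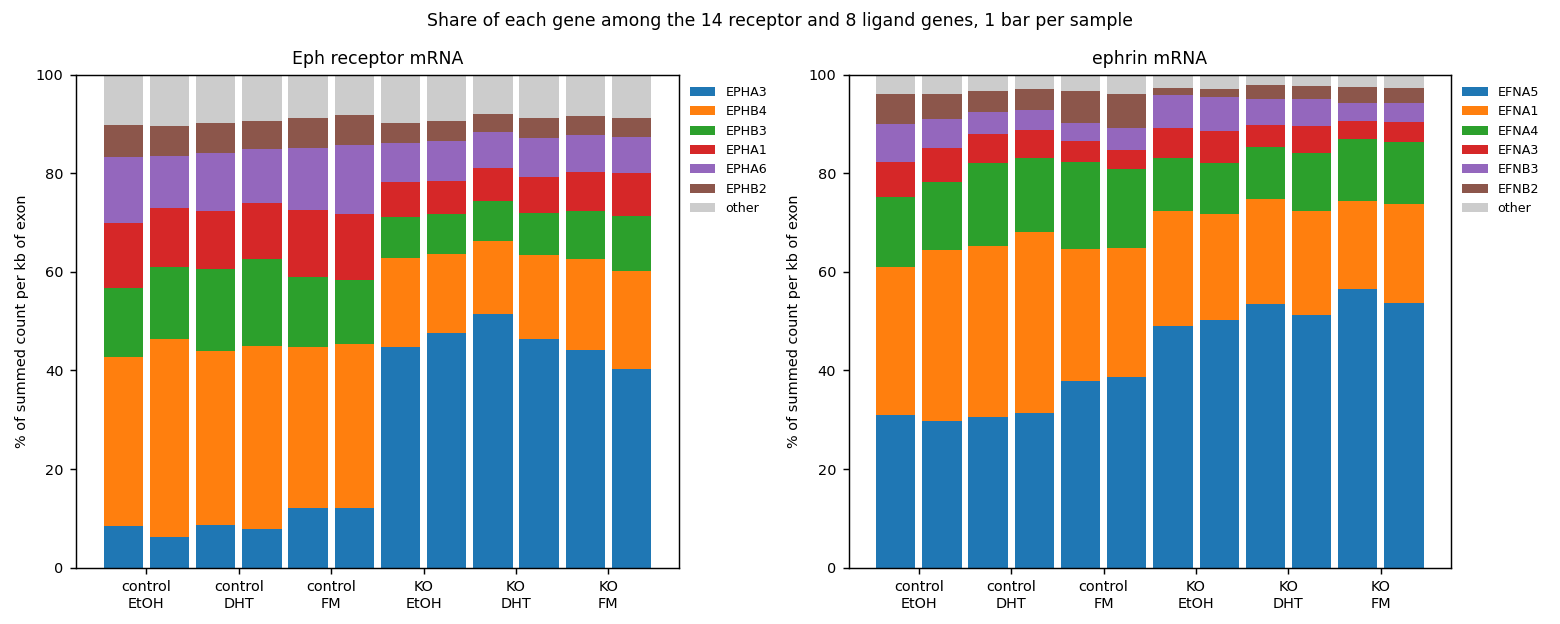
Share of each gene in the summed read count per kb of exon, in percent, for the 14 Eph receptor genes (left) and the 8 ephrin genes (right), with 1 bar per sample. The EPHA3 segment covers 6.2% to 12.1% of receptor counts in control samples and 40.3% to 51.4% in KO samples, and the EFNA5 segment 29.8% to 38.6% and 49% to 56.5% of ligand counts.

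Of the 12 other family genes, those called between the lines all rose in KO. In EtOH 1 of the 12 rose (2.8% of all genes did), in DHT 3 (4.66%) and in FM 2 (5.41%). The shares are over genes with an adjusted p, without which no call was possible. Of the 12, 11 had one in each comparison within a line, and between the lines 11 in EtOH, 11 in DHT and 9 in FM. In none of these conditions did DESeq2 call any of the 12 lower, that is 0 where 2.31%, 3.32% and 2.6% of all genes fell, with 0 lower at an unadjusted p under 0.05 and 0 by edgeR. EPHB6, a receptor without kinase activity, read 128.5 and 146.2 normalized counts in control EtOH against 331.2 and 301.1 in KO EtOH. It rose 2.3-fold in EtOH (log2 1.20 ± 0.20, DESeq2 adjusted p = 1.35e-07), 2.89-fold in DHT (1.53 ± 0.21, DESeq2 adjusted p = 2.92e-11) and 3.24-fold in FM (1.70 ± 0.22, DESeq2 adjusted p = 2.09e-12), with no overlap between the lines, and the EtOH value was 1.11 or 1.30 without control EtOH replicate 1 or 2. EPHA10, the other family member known as a pseudokinase, rose in DHT (log2 0.71 ± 0.15, DESeq2 adjusted p = 6.32e-05) and FM (0.77 ± 0.17, DESeq2 adjusted p = 0.000116), and EFNB3, a transmembrane ligand, rose in DHT (0.81 ± 0.14, DESeq2 adjusted p = 9.75e-07).

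DHT lowered EPHB6 in control (log2 -0.60 ± 0.22, DESeq2 adjusted p = 0.0349), where 5 of the 12 were lower at an unadjusted p under 0.05 and 3 by edgeR. This call, beside 5.37% of all genes, was lost in 10 of the 12 fits without a single sample, with -0.40 and a DESeq2 adjusted p of 0.334 without control DHT replicate 2, -0.50 and 0.146 without control EtOH replicate 2, and -0.59 or -0.60 and 0.0507 to 0.0698 without one of the FM or KO samples. In KO DHT lowered 0 of the 12 by DESeq2, where 3.24% of all genes fell, with 1 at an unadjusted p under 0.05 and 0 by edgeR. DHT raised 0 in either line by DESeq2, with 0 at an unadjusted p under 0.05 and 0 by edgeR. Of all genes 6.04% rose in control and 4.43% in KO, so these counts of 0 cannot be told apart from the shares of all genes. FM lowered 5 of the 12 in control (11.5% of all genes fell) and 4 in KO (9.68%) and raised 0 by DESeq2, where 9.81% and 9.61% of all genes rose (0 higher at an unadjusted p under 0.05 and 0 by edgeR). Those lowered were EFNB3 (-1.14 ± 0.15 in control and -1.10 ± 0.15 in KO), EFNA3 (-1.11 ± 0.17 and -0.98 ± 0.16), EPHA10 (-1.08 ± 0.16 and -0.76 ± 0.15) and the scarce EPHB1 (-2.52 ± 0.84 and -2.61 ± 0.88) in both lines, and EPHB6 in control (-0.93 ± 0.23). Their DESeq2 adjusted p lay between 9.46e-13 and 0.0123. Without control EtOH replicate 1 or 2 the control values were -0.96 or -1.29 for EFNB3, -1.07 or -1.14 for EFNA3, -1.16 or -0.99 for EPHA10 and -1.02 or -0.83 for EPHB6, all past the threshold. EPHB1 read at most 28.8 normalized counts, and its calls were lost without control FM replicate 2 (-1.82, DESeq2 adjusted p = 0.183), control EtOH replicate 2 (-2.43, DESeq2 adjusted p = 0.0644) or KO FM replicate 1 (-1.55, DESeq2 adjusted p = 0.257), with no adjusted p in KO without KO EtOH replicate 1 (-2.28). EFNA3 shares 41.4% of its 50-base words with the readthrough gene.

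To see whether the difference in EPHA3 was shared by its surroundings, the genes around it were compared between the lines. Of 55 annotated genes with a start within 5 Mb, 11 had a mean normalized count of at least 10. By DESeq2 0 of these 11 passed the threshold between the lines in EtOH, DHT or FM, and 0 by edgeR. Of all genes 2.8%, 4.66% and 5.41% rose and 2.31%, 3.32% and 2.6% fell, so 0 of 11 cannot be told apart from these shares. Below the 1.5-fold minimum, CHMP2B passed the adjusted p in DHT (-0.39, DESeq2 adjusted p = 0.0457) and another neighbour in FM, each lower in KO. At an unadjusted p under 0.05 there were 1 higher and 0 lower in EtOH, 0 and 2 in DHT, and 0 and 2 in FM. Their median log2 fold change was -0.06 in EtOH, -0.09 in DHT and -0.22 in FM, against 3.33, 3.35 and 2.50 for EPHA3. The nearest, C3orf38, whose start lies 0.96 Mb before that of EPHA3, had 0.29, 0.06 and -0.07 in the same order.

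The other neighbours before EPHA3 were CADM2, PPATP1, CHMP2B, CGGBP1 and ZNF654, and the nearest after it was PROS1, with a start 4.44 Mb away. The values of the neighbours ran from -1.45 to 0.36 in EtOH, from -1.06 to 0.52 in DHT and from -0.79 to 0.24 in FM, and the lowest of each belonged to the scarce CADM2 and PPATP1 (means of 14.3 and 11.3 normalized counts).

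Over the 12 samples, the genes most like EPHA3 by Pearson's r of log2(normalized count + 1), among 11227 genes with a mean of at least 100, were EFNA5 (r = 0.981), DTX3L (0.979), IGHV1OR15-6 (0.976), MYD88 (0.975) and PRKAR2A-AS1 (0.970). A total of 13 genes reached 0.95. DTX3L encodes a ubiquitin ligase and MYD88 an adaptor of innate immune receptors. MYD88, DTX3L and PRKAR2A-AS1 are on chromosome 3 as is EPHA3, but at 38180043, 122283185 and 48885005 none of them is within 5 Mb of it. All 5 were higher in KO in each condition, by 0.81 to 2.91 on the log2 scale. Because the samples fall into the 2 lines, these values of r largely restate the difference between the lines. Among the other members r was -0.73 for EFNB2, -0.67 for EPHB4, -0.41 for EPHA7, 0.27 for EPHB2, 0.25 for EFNA4, -0.11 for EPHB3 and -0.06 for EFNA1, and EPHA4 was below the minimum level.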

How the data were processed

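Poly(A) RNA of 12 LNCaP samples (6 groups of 2) had been prepared with a stranded TruSeq kit and sequenced on a HiSeq instrument. The authors mapped the reads to GRCh37 with TopHat (2.0.11) and assigned them to Ensembl genes with HTSeq (0.5.3p3). Base calling used CASAVA (1.7). The annotation release and strand setting were not given in the sources used here. The deposited values are raw read counts per gene with no normalization, 1 table per sample with 63677 identifiers and 5 tallies, and replicates were not pooled. The tallies, 26.9% to 31.5% of the records of a sample, were left out. HTSeq drops reads that fit several genes or places, so overlapping genes are counted low.

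Symbols, GRCh37 positions and exon lengths came from a GENCODE annotation on GRCh37 that held 55665 of the identifiers. Genes with at least 10 summed counts were kept (26156, all 10 members among them). DESeq2 (1.42.0, R 4.3.3), the test in the study's methods, was fitted to all 12 samples with a coefficient per group, median-of-ratios size factors, Wald tests and unshrunken fold changes. Adjusted p-values are Benjamini-Hochberg over all genes with one, and a call needed an adjusted p of at most 0.05 and a fold change of at least 1.5. Replicates of a group differed by more than counting noise (chi-square per degree of freedom of 3.19 to 36.46), so each was counted once. The members and lists were chosen with earlier results of these data known. Named are all members, family genes and 36 signalling partners when called, the 5 genes most like EPHA3 and, of its expressed neighbours within 5 Mb, those before it and the nearest after it. Alternatives were edgeR (4.0.16) with TMM, TMM size factors in DESeq2, no filter, a filter of 10 counts in every sample, a replicate block, a fit of only the groups compared, no fold minimum, each sample left out in turn, and other length scalings. Promoter windows are RefSeq on GRCh38.p14, a different build from the counts, and were matched by symbol. One marker gene, with the sums that include it, one motif and the values of one further gene are not reported here.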

Additional observations from a re-analysis of the deposited data

Results flagged for a closer look

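The DHT response of EFNB2 differed between the lines by a test of the difference itself, KO minus control, at 1.07 on the log2 scale (SE 0.19, DESeq2 adjusted p = 9.3e-06), with both KO DHT samples above both KO EtOH samples, while the control DHT and EtOH samples overlapped. Its FM response differed by 0.86 (SE 0.19, DESeq2 adjusted p = 0.00106). Both values rest on the same 4 EtOH samples and on the low level of EFNB2 in KO EtOH, so they are not separate observations. Groups of 2 samples were not screened for single outlying samples.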

How the results depend on the processing

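A single member value counted as unchanged where it kept its side of the threshold or, for untested EPHA3 values, stayed within its standard error. Of 1620 values under the alternatives, 1599 were unchanged, 29 of them with a change of sign in a value past the threshold in neither fit. Of the rest 13 lost a call, 6 gained one, 2 untested EPHA3 values moved beyond their standard error, and 0 called values reversed. Members changed by DHT in control went from 2 to 1 in a fit of only the groups compared (EPHA4, DESeq2 adjusted p = 0.141), to 5 with no fold minimum, and to between 1 and 2 with a sample left out. Other members changed between the lines in FM numbered 1 to 2 with a sample left out. With no fold minimum, FM in control changed 7 members in place of 3, and FM in KO 6 in place of 3. The count of members whose FM response differed, 1, was 0 to 1 with a sample left out. EPHA3's share of receptor counts not divided by length was 9.82% in control FM, 37.9% in KO FM, 40.8% in KO EtOH, 6.85% in control DHT and 43.1% in KO DHT, and with the longest transcript as length it was 11.2% in control FM and 7.64% in control DHT. These alternatives differ from the main share in the exon lengths alone. DHT in KO, the difference in DHT response, and KO against control in EtOH and in DHT kept their counts of members within 1.5 times under every alternative. For EPHA4, edgeR or a stricter filter added calls in FM between the lines (adjusted p = 0.0266 and 0.0469). Another scaling (TMM) moved the median of all genes by at most 0.032 on the log2 scale.

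With the replicate block, 2 members changed by DHT in control, 2 by DHT in KO, 3 between the lines in EtOH, 3 in DHT and 2 in FM, as without it. Same-numbered samples of 15 pairs of groups had deviations correlating between -0.415 and 0.692 (above 0.1 in 6), so the numbers were not taken as pairs.

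With groups of 2, EPHA4, at 11.7 to 70.1 normalized counts, was the least certain member. A change of EPHA5, at no more than 3.4 normalized counts in any sample, was not detectable at this depth.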

Other observations

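Among 36 genes known to act with Eph receptors or ephrins, KALRN, which encodes the guanine nucleotide exchange factor kalirin, rose in KO in EtOH (1.06 ± 0.17 on the log2 scale, DESeq2 adjusted p = 1.26e-07, and 1.27 or 0.87 without control EtOH replicate 1 or 2), in DHT (0.98 ± 0.18, DESeq2 adjusted p = 2.53e-06) and in FM (0.77 ± 0.19, DESeq2 adjusted p = 0.000961, lost without control FM replicate 2 at 0.0532). NGEF, an exchange factor that binds EphA receptors, rose in KO in FM (0.82 ± 0.18, DESeq2 adjusted p = 9.86e-05). The adaptor NCK2 rose there too (0.62 ± 0.15, DESeq2 adjusted p = 0.000763), a call lost without control FM replicate 1 or KO FM replicate 2 (0.57 in each). PTPN13, a phosphatase, was called higher in KO in EtOH (0.78 ± 0.19, DESeq2 adjusted p = 0.000849) and DHT (0.70 ± 0.19, DESeq2 adjusted p = 0.00269), but in EtOH was 1.19 without control EtOH replicate 1 and 0.47 without replicate 2, and 0.54 or 0.56 in DHT without control DHT replicate 2 or KO DHT replicate 1, below the 1.5-fold minimum. The exchange factor VAV3, at low counts, was called lower in FM (-1.31 ± 0.46, DESeq2 adjusted p = 0.0286), a call lost without control FM replicate 2, either KO FM sample or either KO EtOH sample (-1.26 to -1.33, DESeq2 adjusted p = 0.0566 to 0.258), and without an adjusted p when control FM replicate 1 was left out.

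In all, 2 of the 36 were called higher in KO in EtOH, where 2.8% of all genes were, 2 in DHT (4.66%) and 3 in FM (5.41%), and 1 lower, in FM (2.6%). Of the 36, 33 had an adjusted p, needed for a call, in each comparison within a line. Between the lines 33 had one in EtOH, 33 in DHT and 32 in FM. In EtOH and DHT 0 were lower by DESeq2, where 2.31% and 3.32% of all genes were, with 5 and 6 lower at an unadjusted p under 0.05, and 1 and 0 by edgeR.

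DHT raised 3 of the 36 in control (6.04% of all genes rose) and lowered 4 (5.37% fell), and raised 1 and lowered 2 in KO (4.43% and 3.24%). The PDZ proteins PICK1 (0.94 ± 0.13, DESeq2 adjusted p = 3.17e-11) and GRIP1 (1.15 ± 0.23, DESeq2 adjusted p = 1.61e-05) rose in control, with 0.78 or 1.12 and 1.53 or 0.85 without control EtOH replicate 1 or 2. The other calls in control were each lost without a sample: PTPN1 (0.63 ± 0.10) was 0.55 without control EtOH replicate 2, KALRN (-0.67 ± 0.18) was -0.46 and -0.47 without control EtOH replicate 1 and control DHT replicate 2, and TIAM1 (-0.89 ± 0.30) was -0.74 and -0.73 without control EtOH replicate 2 and control DHT replicate 1. VAV3 (-1.31 ± 0.44) was -1.05, -1.45 and -1.17 without control EtOH replicate 1, control DHT replicate 1 and control DHT replicate 2, and FYN (-0.63 ± 0.19), a Src-family kinase, was -0.59, -0.62 and -0.64 without control EtOH replicate 2, control DHT replicate 1 and control DHT replicate 2. In KO, KALRN fell (-0.74 ± 0.17, DESeq2 adjusted p = 0.000307), while the calls of PICK1 (0.66 ± 0.13) and FYN (-0.76 ± 0.20) were lost without KO DHT replicate 2 (0.57), and without KO EtOH replicate 1 (-0.70) or KO DHT replicate 1 (-0.65). The difference of the DHT responses passed the threshold for 0 partners by DESeq2 (0 at an unadjusted p under 0.05 and 0 by edgeR). Of all genes 0.223% passed it in the higher and 0.185% in the lower direction. With 31 of the 36 having an adjusted p, 0 cannot be told apart from these shares.

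Against EtOH, FM raised 4 of the 36 in control (9.81% of all genes rose) and lowered 3 (11.5% fell), and raised 1 and lowered 4 in KO (9.61% and 9.68%). PTPN1 rose in both lines (0.74 ± 0.10 and 0.67 ± 0.10), and FYN (-1.11 ± 0.20 and -1.40 ± 0.21) and KALRN (-0.97 ± 0.19 and -1.25 ± 0.18) fell in both. YES1 (0.76 ± 0.12) rose in control and CBLB (-0.80 ± 0.20) fell in KO. Without control EtOH replicate 1 or 2 the control values were 0.82 or 0.66 for PTPN1, -1.15 or -1.07 for FYN, -0.75 or -1.15 for KALRN and 0.83 or 0.70 for YES1, all past the threshold. The calls of ITSN2 (0.72 ± 0.15) and CBL (0.66 ± 0.22) in control were lost without control EtOH replicate 2 (0.53 and 0.32, against 0.93 and 1.13 without replicate 1), that of CBL also without control FM replicate 2 (0.66, DESeq2 adjusted p = 0.0606), that of NCK2 (-0.61 ± 0.15) without control EtOH replicate 2 or control FM replicate 1 (-0.56 in each), and that of ANKS1B (-1.06 ± 0.32) in KO without KO FM replicate 1 or KO EtOH replicate 2 (-1.02 in each).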
